A study of Mus musculus with 4 samples.

Results

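Transcription factors that set cell lineage and position along the body were examined in inflamed distal colon of mice lacking Elf4, an Ets family transcription factor, and of wild-type mice. They were chosen by symbol, from the Hox, Tbx, Sox, Gata, Fox, Nkx, Cdx, Hnf, Pou, Meis, Pbx, Irx, sine oculis, Msx, Runx, Tcf, Lef1, Id, Hes, Hey, Ppar and Nr families, with the Nr4a receptors left out. The rule found 55 of the 4121 genes in the authors' table, 52 of them protein-coding. Both groups were C57BL/6 mice aged 8 weeks that had received dextran sulfate sodium at 3% (DSS), which damages the lining of the colon, and were sampled at day 6. There were 2 Elf4-KO samples and 2 WT samples, and whether samples of the same genotype are separate animals is not stated in the labels.

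The authors gave 1 FPKM value (fragments scaled to transcript length and library size) for each gene and genotype. No value per sample, SD or n can therefore be given for any gene, depth is unknown, and no test between genotypes was made here. The table holds genes past the authors' filter alone, with q of at most 0.05 and a difference of about 2-fold or more, so "rose" and "fell" rest on the authors' call. Genes that it does not hold are not analysed here. The q was 0.000372 in the authors' deposited table, the smallest it holds, for 28 of the 55 members, and for other regulators named below without a q. Elf4 itself had 3.51 FPKM in Elf4-KO tissue, against 16.4 FPKM in WT tissue.

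Gut tissue is built from an endoderm-derived epithelium and a mesoderm-derived wall, and each layer is kept by its own factors. In the epithelium, the caudal homeobox factors Cdx1 and Cdx2 fix intestinal identity, the Hnf4, Foxa and Gata factors drive genes of mature absorptive and secretory cells, and nuclear receptors tie transcription to bile acids, steroids and lipids. In the wall, forkhead, T-box and Meis factors act in fibroblasts and muscle, and Hox genes record position from head to tail in both layers. Hox genes lie in 4 clusters, numbered by paralog group from the 3′ end, where genes act in anterior tissue, to the 5′ end, where they act in the hindgut and tail.

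Epithelial factors fell and most stromal factors rose. Of 19 listed epithelial factors, 18 were lower in Elf4-KO tissue, by a median of 7.96-fold, whereas 7 of 8 listed stromal factors were higher. Over all 55 members, 23 (41.8%) were higher and 32 (58.2%) lower, beside 48.0% higher and 52.0% lower among all listed genes. At 4-fold or more the members were less even, with 2 (3.64%) higher and 20 (36.4%) lower, beside 12.9% and 24.5% of all listed genes. The median difference on the log2(FPKM + 1) scale, Elf4-KO minus WT, was -2.13 for the epithelial factors and 0.97 for the stromal factors, beside -0.76 for all listed genes. Adding 1 to each FPKM value makes changes at low levels look smaller than they are. Classes were assigned by each gene's known main site of action, and those of Ppara, Pparg, Sox4, Tcf7l2, Foxd2, Sox5 and Tbx3 in these 2 classes are less sure. They were assigned with earlier results of these data known, so the split between classes is not independent of these data.

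**Figure D1:**
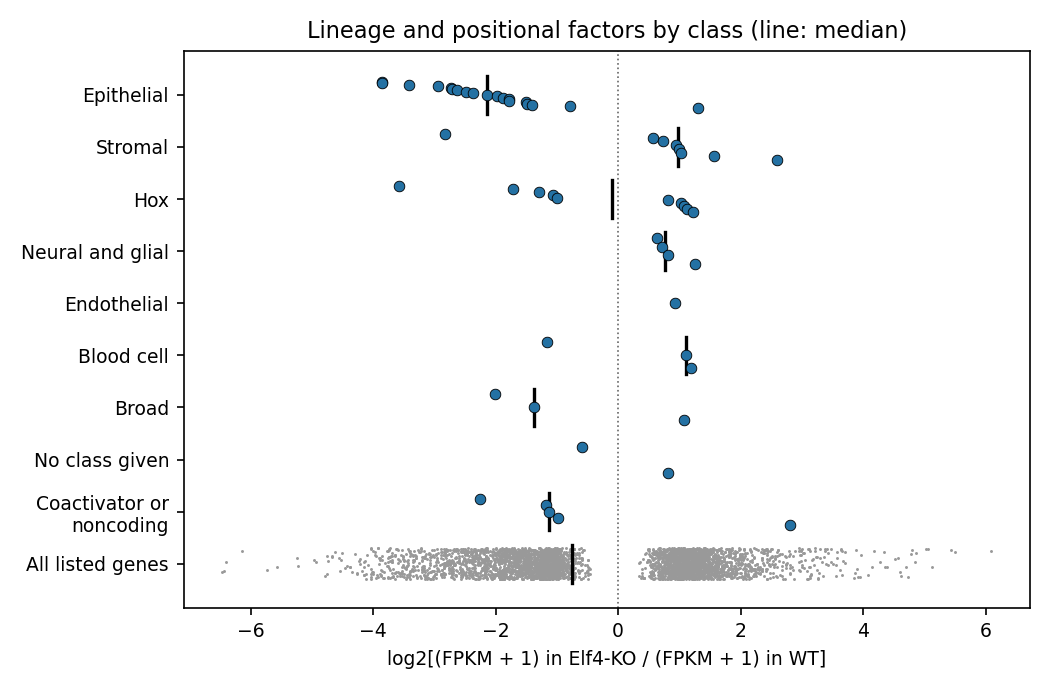
Difference between Elf4-KO and WT tissue on the log2(FPKM + 1) scale for the 55 members, 1 point a gene, by class, with all 4121 listed genes in grey. A black line marks the median of a class of 3 or more. Epithelial factors lie left of 0 except Sox4, and stromal factors right of 0 except Foxd2.

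Epithelial marker genes fell in the same tissue. All 10 listed of 10 markers (Epcam, Cdh1, Vil1, 4 keratins and 3 claudins) were lower, beside 52.0% lower among all listed genes. Their falls ran between 2.60-fold and 19.4-fold, with a median of 11.5-fold. Summed marker levels were 553 FPKM in Elf4-KO tissue and 7294 FPKM in WT tissue. Of the 18 epithelial factors that fell, 5 had a fold above the marker median, and 2, Hnf4g and Foxa2, lay above the highest marker. Both were low in Elf4-KO tissue, at 0.350 and 0.225 FPKM, where small differences make large folds. On the log2(FPKM + 1) scale Hnf4g (-3.41) and Foxa2 (-2.72) fell less than the marker median of -3.46. That order depends on the added 1, which shortens falls at such low levels. Without it the log2 differences were -5.25 for Hnf4g and -4.98 for Foxa2. With 1 added, Cdx1 and Hnf4a, at -3.85 each, lay beyond the marker median but not beyond Krt19, at -4.26. In whole tissue, fewer cells of a type and less RNA per cell cannot be told apart, and the part of cell numbers in these results was not tested.

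Promoter sequence was compared between epithelial and stromal factors. RefSeq windows on GRCm38.p6, covering 250 bases before to 50 bases after a gene start, were found for 39 of the 55 members (48 windows), among them 14 epithelial factors with 21 windows and 7 stromal factors with 7. Windows of 4 genes are printed 5′ to 3′ on the gene's strand to show epithelial factors that fell (Hnf4a at both of its starts, and Cdx2), a receptor gene that fell (Nr1h4) and a stromal factor that rose (Foxf2). Capitals mark any match, on either strand, to letters that factors of these families are known to prefer. These were CGGAAGT for Ets factors, AAAGTCC for the Hnf4 receptors, GTTAAT for Hnf1 factors, TTTATNG for the caudal factors, AGATAA for Gata factors and TGTTTAC for forkhead factors. The windows are Hnf4a chr2:163506607-163506906 and chr2:163546905-163547204 on the plus strand, Cdx2 chr5:147307200-147307499 and Nr1h4 chr10:89506609-89506908 on the minus strand, and Foxf2 chr13:31625566-31625865 on the plus strand.
Hnf4a upstream start: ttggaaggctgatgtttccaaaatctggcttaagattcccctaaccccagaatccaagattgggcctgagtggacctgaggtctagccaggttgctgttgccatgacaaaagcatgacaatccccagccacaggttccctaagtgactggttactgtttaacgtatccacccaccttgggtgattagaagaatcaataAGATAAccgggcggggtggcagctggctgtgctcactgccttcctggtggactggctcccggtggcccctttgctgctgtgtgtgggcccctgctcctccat
Hnf4a downstream start: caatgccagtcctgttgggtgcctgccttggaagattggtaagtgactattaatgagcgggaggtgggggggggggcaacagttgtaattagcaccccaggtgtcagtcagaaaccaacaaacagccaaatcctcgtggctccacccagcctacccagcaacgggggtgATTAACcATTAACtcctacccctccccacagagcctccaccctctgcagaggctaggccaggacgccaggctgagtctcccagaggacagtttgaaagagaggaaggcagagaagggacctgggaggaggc
Cdx2: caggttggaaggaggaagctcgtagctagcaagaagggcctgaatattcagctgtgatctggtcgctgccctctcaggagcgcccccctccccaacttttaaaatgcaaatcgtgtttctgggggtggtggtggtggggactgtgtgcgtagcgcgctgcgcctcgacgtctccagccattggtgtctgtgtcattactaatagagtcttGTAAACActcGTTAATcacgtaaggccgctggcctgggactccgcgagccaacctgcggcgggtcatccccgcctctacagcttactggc
Nr1h4: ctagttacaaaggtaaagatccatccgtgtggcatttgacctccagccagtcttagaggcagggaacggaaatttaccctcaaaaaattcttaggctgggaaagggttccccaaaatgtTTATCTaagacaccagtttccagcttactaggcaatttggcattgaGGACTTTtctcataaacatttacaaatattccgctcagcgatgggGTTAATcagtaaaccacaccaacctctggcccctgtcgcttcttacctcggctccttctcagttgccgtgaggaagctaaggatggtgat
Foxf2: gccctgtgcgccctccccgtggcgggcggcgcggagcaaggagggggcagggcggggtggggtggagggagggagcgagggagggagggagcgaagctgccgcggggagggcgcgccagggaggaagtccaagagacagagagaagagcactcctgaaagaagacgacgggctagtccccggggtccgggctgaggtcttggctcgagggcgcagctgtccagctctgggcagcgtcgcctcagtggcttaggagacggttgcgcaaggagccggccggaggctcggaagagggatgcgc

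The downstream Hnf4a window held neighboring Hnf1 letters at -81 and -74 from the gene start, and its upstream window held Gata letters at -52. Cdx2 held forkhead letters at -40 and Hnf1 letters at -30, and Nr1h4 held Gata letters at -131, Hnf4 letters at -85 and Hnf1 letters at -40. Foxf2 held none of the 6 motifs, but the printed windows do not stand for their classes. At least 1 motif was held by 10 of 21 windows of epithelial factors (47.6%) and by 4 of 7 of stromal factors (57.1%), beside 35.8% of all windows. Hnf1 letters occurred in 5 of 21 windows of epithelial factors (23.8%) and 0 of 7 of stromal factors, beside 7.10% of all 32851 windows. Gata letters were also in 5 of 21 (23.8%) and 0 of 7, beside 11.2% of all windows, and Hnf4 letters in 1 of 21 and 2 of 7, beside 4.21%. Caudal letters were in 3 of 21 (14.3%) and 1 of 7, beside 10.9%, and forkhead letters in 2 of 21 (9.52%) and 0 of 7, beside 3.65%. Ets letters, the kind of site that Elf4 binds, were in 0 of 21 and 1 of 7, the window of Meis3, beside 6.42% of all windows. The motifs were chosen after the values were seen, and none was chosen for T-box, Sox or Meis factors. With 7 stromal windows, a count of 0 of 7 says little beside shares of this size. Windows of 1 gene are not independent, and none of these matches is a binding site by itself. A missing match says only that the letters were not in the window. The median ratio of observed to expected CpG was 0.548 for epithelial factors and 0.688 for stromal factors, beside 0.384 for all windows.

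The factors of intestinal identity were among the steepest falls. Cdx1 had 6.25 FPKM in Elf4-KO tissue and 103.9 FPKM in WT tissue, a 16.6-fold difference, and Cdx2 (ENSMUSG00000029646), the factor that fixes intestinal fate, had 3.08 FPKM in Elf4-KO tissue and 30.5 FPKM in WT tissue, a 9.89-fold difference. Hnf4a (ENSMUSG00000017950), which maintains enterocyte gene expression, had 8.93 FPKM in Elf4-KO tissue and 142.4 FPKM in WT tissue (15.9-fold). It was the most abundant epithelial factor in WT tissue, with Cdx1 next in order. The locus of Hnf4a in the table also takes in R3hdml, so reads of that gene may be part of its value. Its close relative Hnf4g fell 38.1-fold, the steepest fall among the members, with 0.350 FPKM in Elf4-KO tissue and 13.3 FPKM in WT tissue. Gata6, needed for crypt cell renewal, had 3.19 FPKM in Elf4-KO tissue and 13.5 FPKM in WT tissue, at 4.22-fold the mildest fall among these factors.

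All 3 Foxa genes fell, beside 52.0% lower among all listed genes (24.5% at 4-fold or more). These forkhead pioneer factors open chromatin in endoderm and serve goblet and enteroendocrine cells. Foxa1 had 1.97 FPKM in Elf4-KO tissue and 17.4 FPKM in WT tissue (8.85-fold), and Foxa3 had 0.953 FPKM in Elf4-KO tissue and 9.04 FPKM in WT tissue (9.48-fold). Foxa2 had 0.225 FPKM in Elf4-KO tissue and 7.10 FPKM in WT tissue, leaving 3.17% of the WT level. Nkx2-2, a factor of enteroendocrine cells, was low in both genotypes, with 0.118 FPKM in Elf4-KO tissue and 1.96 FPKM in WT tissue (q = 0.0164 in the authors' deposited table). Its locus in the table spans 9.23 times the annotated length.

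Sox9, a factor of crypt progenitors, had 1.43 FPKM in Elf4-KO tissue and 8.57 FPKM in WT tissue (5.99-fold). Tcf7l2, a main effector of Wnt signaling in crypts, had 7.52 FPKM in Elf4-KO tissue and 22.9 FPKM in WT tissue (3.05-fold). The exception among epithelial factors was Sox4, a SoxC factor of progenitors that is active in many tissues besides epithelium. Its level was 15.3 FPKM in Elf4-KO tissue and 5.60 FPKM in WT tissue, 2.73-fold higher. Sox12, another SoxC factor, rose as well, with 3.32 FPKM in Elf4-KO tissue and 1.06 FPKM in WT tissue.

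**Figure D2:**
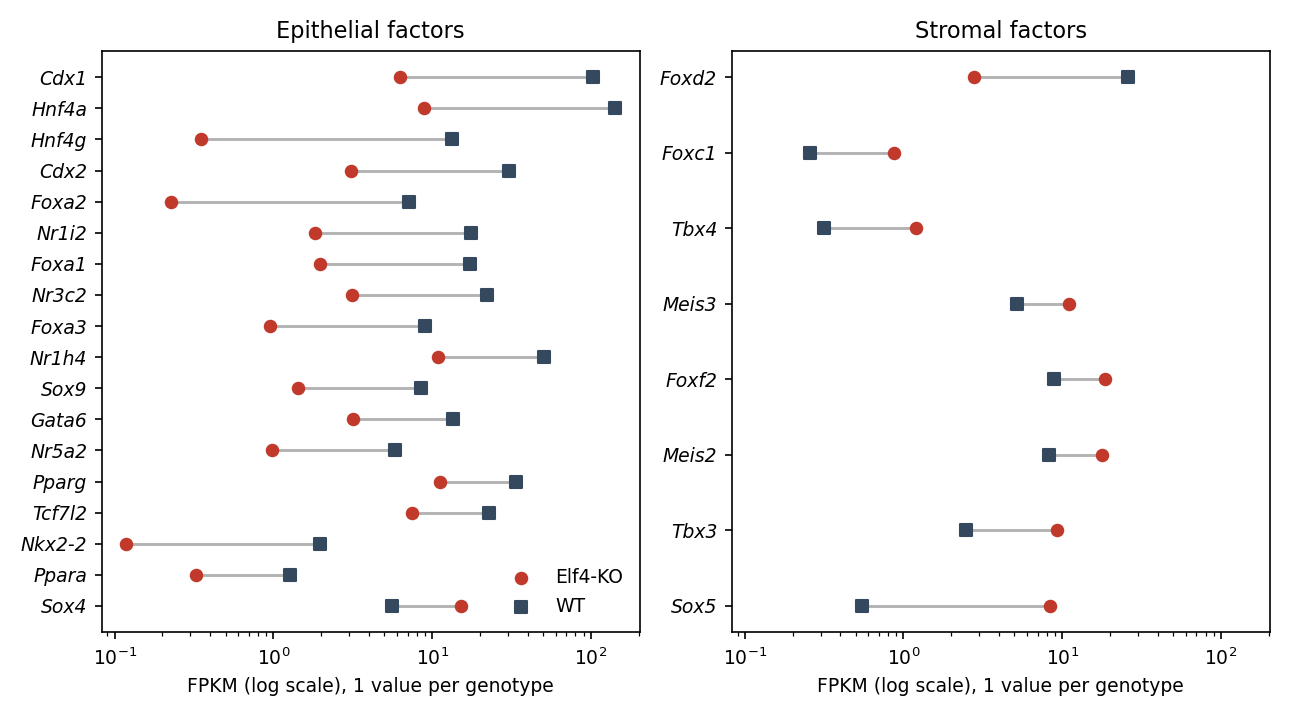
FPKM on a log axis for 18 of the 19 epithelial factors (left panel) and 8 stromal factors (right panel), with a red circle for Elf4-KO and a dark square for WT. Lines join the values of a gene, and the longest are those of Hnf4g and Foxa2 on the left and of Sox5 on the right.

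The listed nuclear receptors of the epithelium fell, beside 52.0% lower among all listed genes. Nr1h4, the bile acid receptor FXR, had 10.9 FPKM in Elf4-KO tissue and 51.0 FPKM in WT tissue (4.70-fold). Nr1i2, the xenobiotic receptor PXR, fell further, by 9.60-fold, with 1.83 FPKM in Elf4-KO tissue and 17.6 FPKM in WT tissue. Nr3c2, the mineralocorticoid receptor through which aldosterone raises sodium uptake, had 3.13 FPKM in Elf4-KO tissue and 22.1 FPKM in WT tissue (7.07-fold). Nr5a2, which drives steroid synthesis and renewal in crypts, had 0.975 FPKM in Elf4-KO tissue and 5.82 FPKM in WT tissue (5.97-fold). These 4 were the listed genes of 23 annotated protein-coding Nr genes outside Nr4a (17.4%, beside 17.5% of all protein-coding genes).

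The PPAR receptors and their PGC-1 coactivators fell. These lipid-sensing receptors and their PGC-1 coactivators control fatty acid oxidation and mitochondrial genes. All 5 annotated Ppar genes, the coactivators included, were listed, and all 5 were lower, by a narrow range of 2.67-fold to 3.93-fold. Among all listed genes 52.0% were lower, and the median fold in either direction was 3.21. Centred on the table median, the log2 differences of the Ppar genes ran from -0.75 (Pparg) to -0.02 (Ppara). Ppard was the most abundant, with 17.5 FPKM in Elf4-KO tissue and 46.7 FPKM in WT tissue. Pparg, which acts in colonocytes and in fat, had 11.2 FPKM in Elf4-KO tissue and 33.7 FPKM in WT tissue. It fell while the listed fat markers (4 of 8, Fabp4, Cfd, Cidec and Retn) rose, with summed levels of 633 FPKM in Elf4-KO tissue and 134.3 FPKM in WT tissue. Fabp4 alone made up 426.7 FPKM of the Elf4-KO sum and 66.1 FPKM of the WT sum. Ppara had 0.324 FPKM in Elf4-KO tissue and 1.28 FPKM in WT tissue (q = 0.0484 in the authors' deposited table). The coactivator Ppargc1a had 0.978 FPKM in Elf4-KO tissue and 3.34 FPKM in WT tissue (q = 0.0393 in the authors' deposited table). Ppargc1b was close to it, with 0.923 FPKM in Elf4-KO tissue and 2.82 FPKM in WT tissue (q = 0.00156 in the authors' deposited table).

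**Figure D3:**
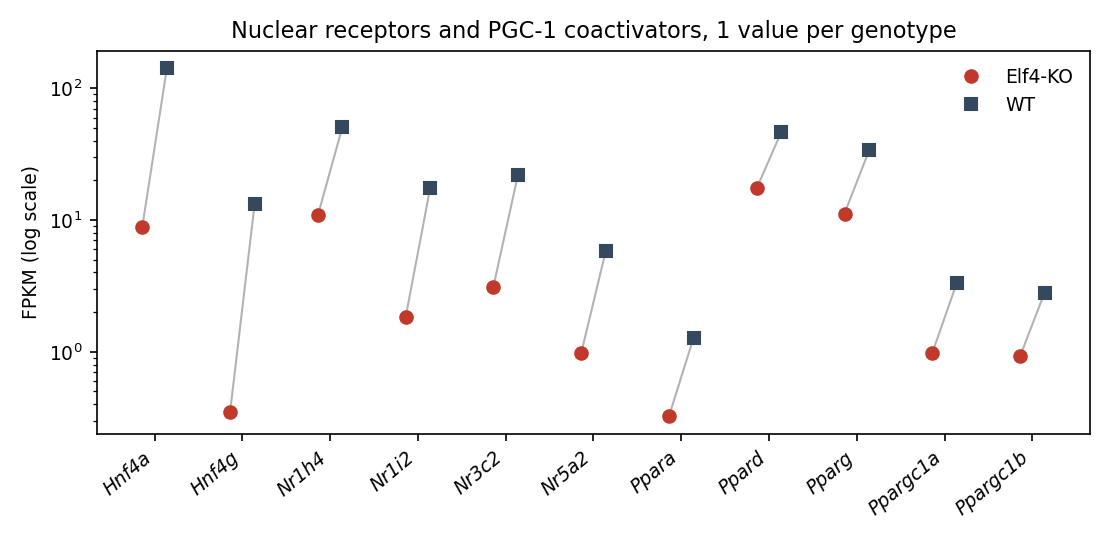
FPKM on a log axis for 8 nuclear receptors of the epithelial class, the widely used receptor Ppard and both PGC-1 coactivators, with Elf4-KO as red circles left of WT as dark squares. Each gene is lower in Elf4-KO tissue, and the Ppar genes fall less steeply than Hnf4a and Hnf4g.

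The stromal factors that rose did so by less than 4-fold, except Sox5. Foxf2, a forkhead factor of gut fibroblasts and muscle, had 18.6 FPKM in Elf4-KO tissue and 8.83 FPKM in WT tissue (2.11-fold, q = 0.00128 in the authors' deposited table). The TALE homeobox gene Meis2, whose protein acts with Hox proteins, had 17.8 FPKM in Elf4-KO tissue and 8.22 FPKM in WT tissue (2.17-fold, q = 0.00476 in the authors' deposited table). Meis3 had 11.0 FPKM in Elf4-KO tissue and 5.20 FPKM in WT tissue (q = 0.0331 in the authors' deposited table). Foxf2, Meis2 and Meis3 did not reach a 3-fold difference. Tbx3, a T-box repressor of mesenchyme and neurons, had 9.28 FPKM in Elf4-KO tissue and 2.48 FPKM in WT tissue (3.75-fold). Sox5, known from cartilage and neurons, rose 15.2-fold, with 8.35 FPKM in Elf4-KO tissue and 0.550 FPKM in WT tissue. Foxc1 and Tbx4 were low, with 0.868 and 1.20 FPKM in Elf4-KO tissue and 0.257 and 0.317 FPKM in WT tissue (q = 0.0197 and 0.0130 in the authors' deposited table).

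Tbx3 and the noncoding RNA Tbx3os1 on the opposite strand were given the same locus in the table, chromosome 5, 119570130 to 119684724. Tbx3os1 had 10.8 FPKM in Elf4-KO tissue and 0.698 FPKM in WT tissue (q = 0.0486 in the authors' deposited table). As annotated, Tbx3os1 runs from 119570130 to 119671365 and Tbx3 from 119670669 to 119684724, so they overlap only in part. The sources used here do not say whether counting used strand, so reads from that overlap cannot be told apart.

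Foxd2 went against its class. It had 2.78 FPKM in Elf4-KO tissue and 25.8 FPKM in WT tissue, 9.30-fold lower, close to the folds of Cdx2, Foxa1 and Foxa3. The noncoding gene Foxd2os, which starts 383 bases from Foxd2 on the opposite strand of chromosome 4, fell with it, with 0.592 FPKM in Elf4-KO tissue and 6.56 FPKM in WT tissue (11.1-fold). Its relative Foxd3, a factor of neural crest and glia, moved the other way, with 2.46 FPKM in Elf4-KO tissue and 0.977 FPKM in WT tissue (q = 0.0295 in the authors' deposited table).

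Fibroblast markers rose beside the stromal factors. Of 10 markers, 6 were listed and 6 were higher, beside 48.0% higher among all listed genes. Their folds ran between 2.12 for Vim and 5.21 for Dcn. Summed levels were 4593 FPKM in Elf4-KO tissue and 1271 FPKM in WT tissue. Dcn alone made up 2778 FPKM of the Elf4-KO sum and 533 FPKM of the WT sum. Of 8 smooth muscle markers, 0 were listed. The part of fibroblast content in the rise of stromal factors was not tested.

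Hox genes moved both ways. Of 10 listed Hox genes, 5 were higher and 5 lower, beside 48.0% and 52.0% of all listed genes. The 4 listed genes of paralog groups 2 to 5, all in the HoxB cluster, were higher, and 5 of the 6 listed genes of groups 7 to 13 were lower. The exception was Hoxd9. Of the 4 anterior genes, Hoxb4 alone has a locus in the table that takes in no other gene, and the locus of Hoxa7, which fell, takes in anterior HoxA genes. The division by paralog group was not tested. No HoxC gene of 9 was listed. Of all 39 annotated Hox genes 10 were listed (25.6%), beside 17.5% of all protein-coding genes.

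Of the 6 listed Hox genes of groups 7 to 13, 5 fell. Hoxb13 (ENSMUSG00000049604; chromosome 11, 96194316 to 96197447, plus strand), the most 5′ gene of HoxB and a factor of hindgut, tail and prostate, had 2.42 FPKM in Elf4-KO tissue and 39.6 FPKM in WT tissue. Its 16.4-fold fall was close to that of Hnf4a, and the next steepest among Hox genes was the 3.70-fold fall of Hoxa7. Hoxa13, its paralog in HoxA, had 12.2 FPKM in Elf4-KO tissue and 26.6 FPKM in WT tissue, 2.17-fold lower (q = 0.000998 in the authors' deposited table). In paralog group 9, Hoxb9 had 1.80 FPKM in Elf4-KO tissue and 5.86 FPKM in WT tissue (q = 0.000694 in the authors' deposited table). Hoxa9 had 8.77 FPKM in Elf4-KO tissue and 18.4 FPKM in WT tissue (q = 0.0212 in the authors' deposited table). Hoxd9 rose, with 2.37 FPKM in Elf4-KO tissue and 0.929 FPKM in WT tissue (q = 0.0324 in the authors' deposited table).

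Hoxa7 had 5.54 FPKM in Elf4-KO tissue and 20.5 FPKM in WT tissue (q = 0.00263 in the authors' deposited table). Its locus in the table runs over Hoxa2, Hoxa3, Hoxa4, Hoxa5 and Hoxa6, so its value may hold reads of those genes. The noncoding Hoxa11os, which overlaps Hoxa11 on the opposite strand, had 18.8 FPKM in Elf4-KO tissue and 43.6 FPKM in WT tissue (q = 0.0360 in the authors' deposited table). All 4 listed transcripts of the HoxA cluster, Hoxa11os included, were thus lower in Elf4-KO tissue.

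Anterior HoxB genes rose by 2.51-fold to 3.31-fold. Hoxb2 had 6.59 FPKM in Elf4-KO tissue and 2.47 FPKM in WT tissue (q = 0.0403 in the authors' deposited table), and Hoxb3 had 4.42 FPKM in Elf4-KO tissue and 1.33 FPKM in WT tissue (q = 0.0148 in the authors' deposited table). Both have the same locus in the table, so the split of reads between them is uncertain. Hoxb4 had 3.86 FPKM in Elf4-KO tissue and 1.39 FPKM in WT tissue (q = 0.00519 in the authors' deposited table). Hoxb5, needed for the enteric nervous system, had 6.65 FPKM in Elf4-KO tissue and 2.64 FPKM in WT tissue (q = 0.0331 in the authors' deposited table), and its locus also takes in Hoxb6. Without the Hox genes whose locus takes in another gene, 2 were higher (Hoxb4 and Hoxd9) and 4 lower, and 1 of HoxB was higher.

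**Figure D4:**
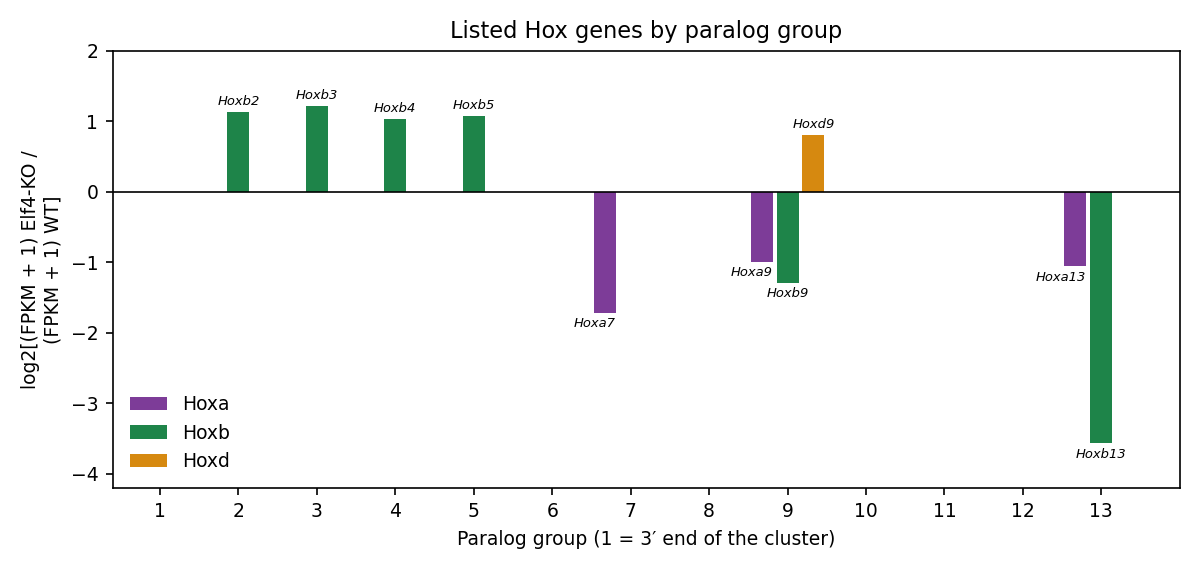
Difference between Elf4-KO and WT tissue on the log2(FPKM + 1) scale for the 10 listed Hox genes against paralog group, coloured by cluster. Bars above 0 are higher in Elf4-KO tissue: the HoxB genes of groups 2 to 5 and Hoxd9. Hoxb13 has the longest bar, at -3.57.

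Of 18 genes in the neural and glial class 4 were listed (22.2%, beside 17.5% of all protein-coding genes), and these 4 rose, beside 48.0% of all listed genes that were higher. The class of Pou6f1 is less sure. Sox10, the glial and neural crest factor, had 2.97 FPKM in Elf4-KO tissue and 1.41 FPKM in WT tissue (q = 0.0368 in the authors' deposited table). The POU homeobox gene Pou6f1 was the most abundant, with 11.7 FPKM in Elf4-KO tissue and 4.31 FPKM in WT tissue. Pou3f3 had 1.19 FPKM in Elf4-KO tissue and 0.410 FPKM in WT tissue (q = 0.00498 in the authors' deposited table), and Foxd3, given above, was the remaining gene. Of 8 enteric nerve markers, the 4 listed rose, with summed levels of 106.8 FPKM in Elf4-KO tissue and 33.2 FPKM in WT tissue. Sox7, an endothelial factor, had 3.42 FPKM in Elf4-KO tissue and 1.33 FPKM in WT tissue (q = 0.00773 in the authors' deposited table). Of 8 endothelial markers, the 6 listed rose, with summed levels of 256 FPKM in Elf4-KO tissue and 87.9 FPKM in WT tissue. The part of nerve and vessel content in these results was not tested.

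Factors of blood cells and factors used widely moved both ways. The classes of Runx1 and Id2, the listed blood cell factors that rose, are less sure. Tbx21, the T-bet factor of interferon-producing lymphocytes, had 0.407 FPKM in Elf4-KO tissue and 2.14 FPKM in WT tissue (5.25-fold lower, q = 0.00238 in the authors' deposited table). The 5 listed of 8 T cell markers also fell, with summed levels of 27.0 FPKM in Elf4-KO tissue and 80.6 FPKM in WT tissue. So did the 3 listed of 8 B cell markers, with 7.74 FPKM in Elf4-KO tissue and 32.5 FPKM in WT tissue. Of all listed genes, 52.0% were lower. The part of lymphocyte content in the fall of Tbx21 was not tested. Runx1, a factor of blood cell formation, had 21.5 FPKM in Elf4-KO tissue and 9.44 FPKM in WT tissue.

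Id1 and Id2 moved in opposite directions. Both encode proteins that bind basic helix-loop-helix factors and keep them off DNA. Id1 had 47.2 FPKM in Elf4-KO tissue and 193.4 FPKM in WT tissue (4.09-fold lower), the highest WT level of any member. Id2, also used by innate lymphocytes, had 139.6 FPKM in Elf4-KO tissue and 60.6 FPKM in WT tissue (2.31-fold higher), the highest Elf4-KO level of any member. The last members, with no class assigned, were Tbx1, with 3.54 FPKM in Elf4-KO tissue and 1.59 FPKM in WT tissue, and Tcf23, with 0.355 FPKM in Elf4-KO tissue and 1.03 FPKM in WT tissue (q = 0.0420 and 0.0282 in the authors' deposited table).

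By family, the Cdx, Hnf, Nr and Ppar genes were all lower where listed (2, 3, 4 and 5 genes), and Meis and Pou genes all higher (2 genes each). Among all listed genes 52.0% were lower and 48.0% higher, and families of so few genes say little by direction alone. The Sox family had 5 higher and 1 lower (Sox9), the T-box genes, Tbx3os1 included, 4 higher and 1 lower (Tbx21), and the Fox genes, Foxd2os included, 3 higher and 5 lower. Of 244 annotated protein-coding genes that match the symbol rule, 52 (21.3%) were listed, beside 3833 of 21924 protein-coding genes (17.5%). No gene of the Irx, sine oculis, Msx, Lef1, Hes, Hey or Pbx families was listed. Of 29 genes in the epithelial class 19 were listed (65.5%), and of 39 in the stromal class 8 (20.5%). The share of all protein-coding genes was 17.5%, and the classes were assigned with earlier results of these data known.

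Regulators outside the symbol rule divided in the same directions. Their lists were chosen with earlier results of these data known, so they are not independent of the classes above. Of 32 other epithelial regulators 18 were lower and 1 higher among 19 listed, at a median of -2.13 on the log2(FPKM + 1) scale. Among all listed genes 52.0% were lower and 48.0% higher. Isx, an intestine-specific homeobox gene, had 1.67 FPKM in Elf4-KO tissue and 32.5 FPKM in WT tissue, and Klf5, a crypt factor, had 4.65 FPKM in Elf4-KO tissue and 69.1 FPKM in WT tissue. Tfcp2l1 fell 7.98-fold, and Atoh1, which commits cells to the secretory lineage, fell 13.9-fold, with 0.740 FPKM in Elf4-KO tissue and 10.3 FPKM in WT tissue. The gene that was higher was Isl1, also a factor of neurons, named after its values were seen, with 7.95 FPKM in Elf4-KO tissue and 2.17 FPKM in WT tissue.

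Of 35 other stromal regulators 14 were listed and 14 were higher, beside 48.0% of all listed genes. Their median was 1.26 on the log2(FPKM + 1) scale. Twist2, a mesenchymal helix-loop-helix factor, had 10.3 FPKM in Elf4-KO tissue and 2.34 FPKM in WT tissue (4.39-fold, q = 0.000694 in the authors' deposited table). Tead1, a partner of the Yap coactivator, had 30.8 FPKM in Elf4-KO tissue and 9.14 FPKM in WT tissue. Snai1, a repressor of epithelial adhesion genes, had 23.2 FPKM in Elf4-KO tissue and 6.89 FPKM in WT tissue. Hand2, a factor of gut mesenchyme and enteric neurons, rose 3.06-fold and Tshz2 rose 2.82-fold.

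**Figure D5:**
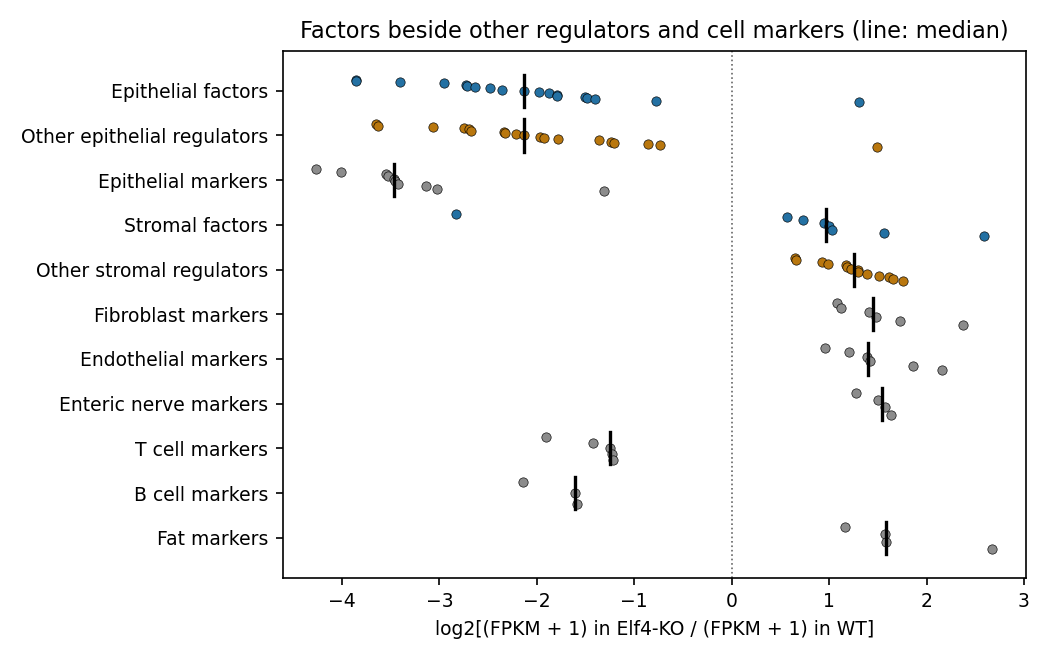
Difference between Elf4-KO and WT tissue on the log2(FPKM + 1) scale, 1 point a listed gene, for the epithelial and stromal factors (blue), other regulators outside the symbol rule (orange) and cell markers (grey), with a line at each median. The epithelial rows lie left of 0 except Sox4 and Isl1, and the wall, vessel, nerve and fat rows right of 0 except Foxd2.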

How the data were processed

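RNA was sequenced from colon of 2 Elf4-KO and 2 WT samples. Trizol RNA and a Vazyme mRNA library kit were used, per the labels' protocols. Bowtie 0.12.2, Cufflinks 2.2.1 and the build mm8 are named, without roles, in the submitters' processing notes. The deposited FPKM values are, per the file headers, 1 per gene and genotype. The sources used here do not say how the authors combined samples. The p-values and q-values are those of the authors' own comparison. All 55 members had the chromosome of GENCODE M21 on GRCm38 and overlapped the annotated gene, so coordinates are on GRCm38, counting from 1.

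Folds were computed from FPKM, and differences on a log2 scale after adding 1. The members, classes and lists were chosen with earlier results of these data known, and motifs and printed windows after the values were seen. Every member could be named, and of each regulator list the 5 largest differences. Values of 1 member and 1 regulator are not reported here, though counts include them. The table gives no values per sample, so no test, normalization or interval was computed. The counting was tested on simulated data. Alternatives were other pseudocounts, limits on q, fold and FPKM, and other classes. Python 3.11.15, numpy 2.4.6, pandas 2.3.3 and matplotlib 3.10.9 were used.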

Additional observations from a re-analysis of the deposited data

How the results depend on the processing

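No paired analysis was possible because each genotype has a single value. For the same reason leaving out each sample was not run, and how far 1 sample sets a value is unknown. Shifts of up to 1.5 times were disregarded. The log2 differences of single members shifted by more than that for 40 of 55 under centring on the table median, 16 without a pseudocount and 11 with a pseudocount of 0.1. Of 55 members, 23 were higher and 32 lower. With at least 4-fold, 2 were higher and 20 lower, by construction fewer. With q of at most 0.01, or with at least 5 FPKM, 12 were higher. With at least 4-fold, 0 epithelial factors and 1 stromal factor were higher, and the stromal median became -0.12, resting on Sox5 and Foxd2 alone. With q of at most 0.01, 4 stromal factors were higher. Without less sure classes, 0 epithelial factors were higher and 0 stromal factors lower. This follows by construction, because Sox4 and Foxd2, which went against their classes, are both among the less sure. With Hox genes as stromal, 12 stromal factors were higher and 6 lower. Centring on the table median of -0.76 gave medians of -1.38 (epithelial) and 1.73 (stromal) and turned 1 member, Tcf23, to 0.17. The Hox genes that were higher numbered 1 with q of at most 0.01 and 0 with at least 4-fold, with the same numbers in HoxB. They numbered 2 with at least 5 FPKM, both in HoxB. With at least 4-fold, 1 Hox gene was lower, in HoxB. Without loci that take in another gene, an alternative chosen after seeing the data, 2 were higher, 1 of them in HoxB.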
